A study of Mus musculus with 10 samples.

Results

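A set of 9 cytokine and growth factor receptor genes of blood stem cells was described here, chosen by symbol: Kit, Csf1r, Epor, Csf3r, Csf2rb, Il3ra, Il6st, Il1r1 and Tnfrsf1a. All 9 were in the deposited count table of 24544 genes. The libraries came from long-term hematopoietic stem cells (LT-HSCs) of the bone marrow of Hoxb5-mCherry mice, a strain in which a red fluorescent protein marks cells that express Hoxb5, aged 2 to 3 months. Both groups were sorted as lineage-negative, cKIT+, SCA1+, CD150+, CD48-, FLK2-, CD34- and Hoxb5+ cells. They differed in the surface receptor neogenin-1, with 5 NEO1+ and 5 NEO1- libraries. Each library held 250 to 500 cells pooled from 2 mice. Every gate included the KIT protein, so that all cells were selected for the product of a receptor gene studied here.

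Cytokine receptors pass signals from secreted proteins to the cell interior. KIT and CSF1R are receptor tyrosine kinases, which carry their own kinase. The receptors for erythropoietin, granulocyte colony-stimulating factor and the interleukin-3 and interleukin-6 families carry none and signal through Janus kinases (JAKs) and STAT transcription factors. IL1R1 and TNFR1 belong to other families and signal through adaptor proteins to NF-kappa-B. In blood stem cells KIT is known for maintaining the cells, while the lineage receptors EPOR, CSF3R and CSF1R are best known for their roles in red cell, neutrophil and macrophage formation.

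The libraries held 21.2 to 38.9 M counts (M, mega). Genes detected ranged from 12800 to 13808 (NEO1+) and from 11477 to 13147 (NEO1-). Rn45s held 27.9 to 37.7% of counts (NEO1+) and 30.7 to 42.4% (NEO1-). Levels are in CPM, the count over the library size in M after TMM scaling, and a count of 0 allows up to 3 counts, or 0.0699 to 0.144 CPM by library. Reads carried no molecular identifiers, so floors and intervals of counts cover counting error only. All 10 stem cell markers, among them Hlf, Mecom and Procr, were detected in 9 libraries, and Hoxb5 was at 0 in NEO1- library 3. Neo1 itself ranged from 12.5 to 64.8 CPM where the label was NEO1+ and from 4.56 to 18.9 CPM where it was NEO1-. Markers of other cells differed widely between libraries, and 4 of them (NEO1+ 1, NEO1+ 3, NEO1- 3 and NEO1- 4) had a summed neutrophil or granulocyte and monocyte progenitor marker level above 1000 CPM. The log2 fold changes of the 8 tested receptors are given with and without them, and levels, ranks and other genes over all 10 libraries. The summed level of 10 proliferation genes ranged from 254 to 458 CPM (NEO1+) and from 62.6 to 173 CPM (NEO1-), without overlap. Of these genes 0 passed edgeR's quasi-likelihood test after Benjamini-Hochberg adjustment, and 7 had an unadjusted p under 0.05, beside 6.60% of all genes tested.

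Ranked by CPM per kilobase of transcript, Kit stood highest and Tnfrsf1a next in all 10 libraries. The median level over the 10 libraries was 88.2 CPM per kilobase for Kit, 46.9 for Tnfrsf1a and 12.8 for Csf3r. Ranges over libraries did not overlap between Kit (74.8 to 109) and Tnfrsf1a (43.7 to 66.4), nor between Tnfrsf1a and Csf3r (9.49 to 19.4). Below them the ranges of all neighbours in the order overlapped. Median levels were 6.89 CPM per kilobase for Epor, 2.97 for Il6st, 2.37 for Il3ra, 2.16 for Csf2rb, 0.283 for Il1r1 and 0 for Csf1r. Csf3r exceeded Epor in 8 of 10 libraries, and Epor exceeded Il6st in 9 of 10. Il6st exceeded Il3ra in 6 libraries and Il3ra exceeded Csf2rb in 4, so these 3 genes had no order that held across libraries. With coding length in place of transcript length, 7 of 9 receptors kept their rank, and Il6st, which has a long transcript of 8678 bases, moved above Epor.

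**Figure D1:**
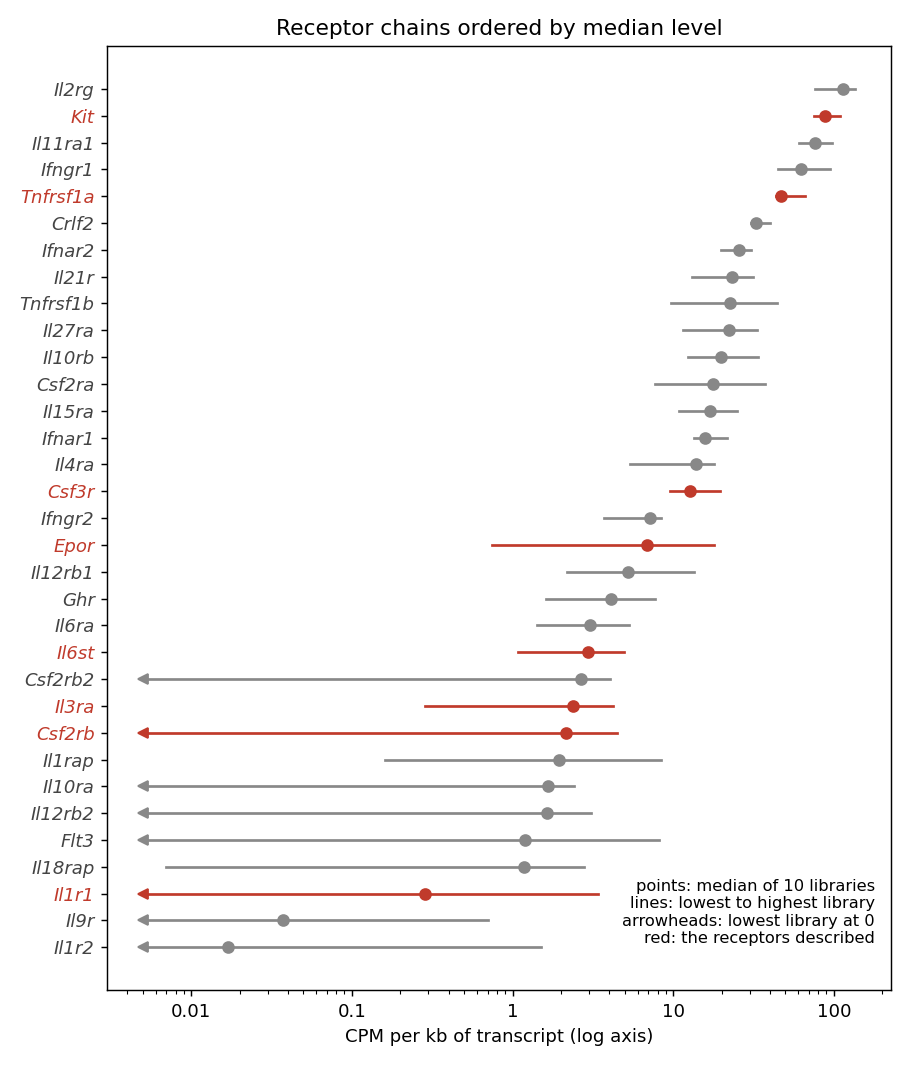
Receptor chains reported here with a median above 0, ordered by their median level in CPM per kilobase of transcript on a logarithmic axis, with points at the median of 10 libraries, lines from the lowest to the highest library and arrowheads where the lowest library is at 0. The receptors described are in red and other chains in grey; Kit (median 88.2) and Tnfrsf1a (46.9) lie near the top, and Csf1r, with a median of 0, is not drawn.

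Among 12032 tested genes with a transcript length, 95.6% had a lower mean level per kilobase than Kit and 90.2% a lower one than Tnfrsf1a. Csf3r stood above 63.7% of these genes and Epor above 52.6%. Il6st, Csf2rb and Il3ra were in the lower range, above 26.7%, 22.8% and 21.2% of genes, and Il1r1 stood above 9.15%. For comparison, Il2rg, the gamma chain shared by several interleukin receptors, had a median of 114 CPM per kilobase. Of 38 other receptor chains, 20 were detected in all libraries and 4, namely Lepr, Il5ra, Lifr and Cntfr, were at 0 in all libraries.

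None of the 9 receptors passed the test between NEO1+ and NEO1- cells. In edgeR's quasi-likelihood test with Benjamini-Hochberg adjustment 0 of 9 passed an adjusted p of 0.05, beside 0% of the 12203 genes tested. At an unadjusted p under 0.05 there were 0 of 9 receptors, beside 6.60% of genes tested (3.11% higher and 3.49% lower in NEO1+ cells). DESeq2 called 0 of 9 receptors beside 146 of 14606 genes (1%), and 0 of 9 beside 5.49% with the replicate number as a block. Among these runs and those of limma-trend and limma-voom, which called 0 of 9 too, the DESeq2 fit without the block alone had a receptor at an unadjusted p under 0.05, namely Il1r1 (DESeq2 adjusted p 0.478). The groups overlapped in all 9 receptors, while 2.48% of all tested genes did not overlap (1.35% higher and 1.13% lower in NEO1+ cells). Csf1r was removed by the filter on low counts, so 8 of 9 entered the test. Of these, 3 had a higher and 5 a lower fitted level in NEO1+ cells, with a median log2 fold change of -0.03 beside 0.01 over all genes tested. A p that misses the threshold does not show equal levels, and the 95% intervals below give what the libraries allow.

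**Figure D2:**
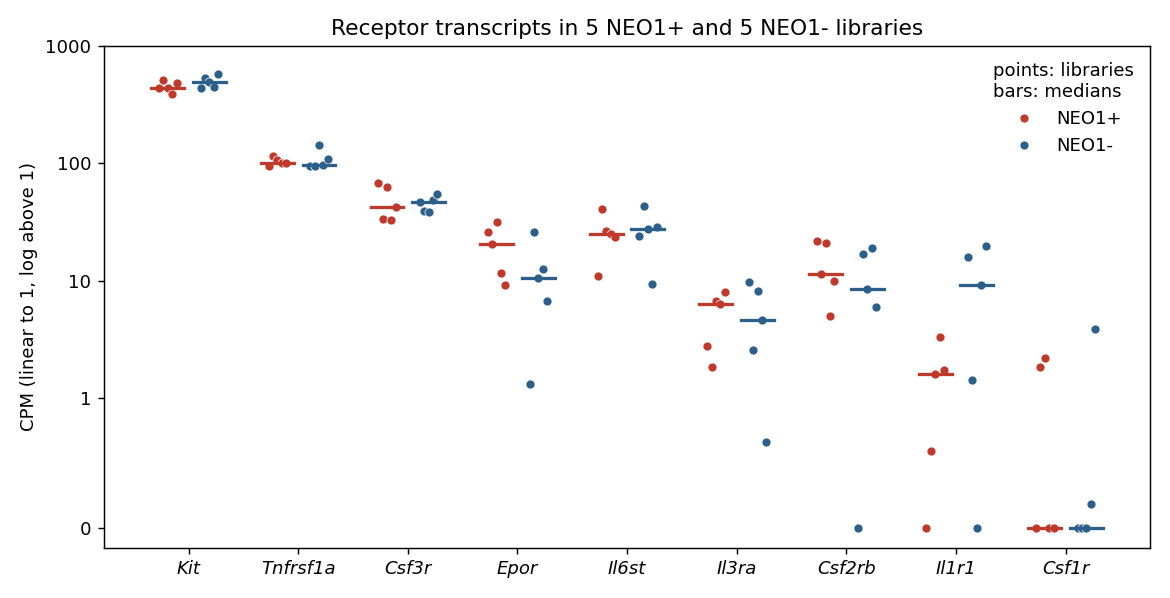
Level of each of the 9 receptors in CPM in the 5 NEO1+ and 5 NEO1- libraries, one point per library with a bar at the group median, on an axis that is linear to 1 CPM and logarithmic above. The groups overlap for every receptor; Kit runs from 392 to 574 CPM, and Il1r1 reaches 19.7 CPM in NEO1- but 3.32 CPM in NEO1+ libraries.

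**Figure D3:**
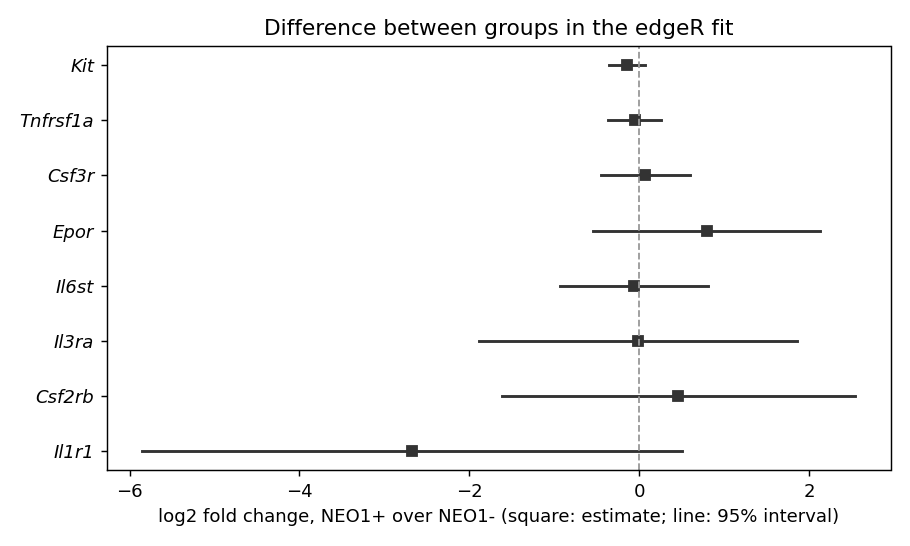
Log2 fold change, NEO1+ over NEO1-, of the 8 tested receptors from edgeR, with 95% intervals. Every interval includes 0; those of Kit (-0.36 to 0.07) and Tnfrsf1a (-0.36 to 0.26) are narrow and that of Il1r1 (-5.85 to 0.50) is wide.

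Kit, on chromosome 5 (chr5:75574916-75656722, plus strand, GENCODE M21 on GRCm38, 21 exons), encodes the receptor for stem cell factor. Its level in NEO1+ libraries 1 to 5 was 436, 509, 435, 392 and 481 CPM. The NEO1- values, in the same order, were 436, 537, 496, 444 and 574 CPM. NEO1- library 5 was highest and NEO1+ library 4 lowest, and the highest exceeded the lowest 1.46-fold. The group means were 451 ± 45.2 CPM (NEO1+) and 498 ± 59.1 CPM (NEO1-; SD, n = 5 each). The log2 fold change was -0.14 (SE 0.10, 95% interval -0.36 to 0.07, edgeR adjusted p 0.899), and -0.16 without the 4 libraries of high granulocytic marker sums. Kit transcript thus had a coefficient of variation of 10.03% in NEO1+ and 11.9% in NEO1- libraries, in cells that all came from a KIT+ gate.

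Csf1r, the receptor for macrophage colony-stimulating factor and interleukin-34, is the other receptor tyrosine kinase of the 9. Counts were 0, 72, 93, 0 and 0 in NEO1+ libraries 1 to 5 and 0, 0, 0, 6 and 117 in NEO1- libraries. It was at 0 in 6 of 10 libraries, 3 in each group, and reached at most 3.87 CPM. No fold change is read here, since most libraries of both groups were at 0, and those of the alternatives appear below for their sign only. The exons of Csf1r overlap those of Hmgxb3 on the opposite strand over 17.9% of their bases, and strand use in counting is not given in the sources used here, so reads of these genes cannot be told apart there. The 10 monocyte and macrophage markers summed to 293 to 824 CPM (NEO1+) and 254 to 401 CPM (NEO1-), with Lyz2 the most abundant in every library. Of these markers Fcgr1 was at 0 in all libraries. Adgre1 was detected in NEO1+ libraries 1 and 3 only, at 5.67 and 3.66 CPM. In NEO1+ library 3, with Csf1r at 2.17 CPM, 1 of the 10 markers was at 0, so most were detected. In NEO1+ library 1, with Csf1r at 0, 3 markers were at 0, and in the other libraries 4 to 6 were.

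Epor, on chromosome 9 (chr9:21958897-21963506, minus strand, 8 exons), encodes the erythropoietin receptor, which red cell precursors need to survive. Its level in NEO1+ libraries 1 to 5 was 25.9, 20.6, 31.5, 11.7 and 9.12 CPM. The NEO1- values, in the same order, were 1.31, 26.0, 10.5, 12.6 and 6.71 CPM. NEO1- library 1 was far below the others, with 41 counts, and the highest library exceeded it 24.1-fold. Means were 19.8 ± 9.43 CPM (NEO1+) and 11.4 ± 9.20 CPM (NEO1-; SD, n = 5 each), with overlapping ranges. The log2 fold change of 0.79 (SE 0.62, 95% interval -0.54 to 2.13) had an edgeR adjusted p of 0.921. Among the 9 receptors, Epor had the largest positive fold change in this edgeR fit. Csf2rb exceeded Epor in limma-trend (1.78 against 1.17) and in limma-voom (2.09 against 1.33). With genes detected as a covariate the value of Epor was 0.25, below those of Il3ra and Il6st. Leaving out 1 library at a time moved the log2 fold change of Epor between 0.50 and 1.35.

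Markers of the red cell lineage varied alongside in some libraries. The summed level of 10 erythroid genes, in which Car1, Alas2 or Rhag was the most abundant in each library, ran from 7.65 to 373 CPM (NEO1+) and from 8.50 to 214 CPM (NEO1-). Of the hemoglobin genes of that list, Hbb-bt, Hbb-bs and Hba-a2 were at 0 in all libraries and Hba-a1 had 1 count in 1 library. How reads that match more than 1 gene were counted is not given in the sources used here. These values thus do not show that hemoglobin RNA was absent. NEO1+ libraries 3 and 1, with the highest and a further high Epor level (31.5 and 25.9 CPM), had the highest sums, 373 and 309 CPM. NEO1- library 2, with 26.0 CPM of Epor, had an erythroid sum of 9.93 CPM and NEO1+ library 2, with 20.6 CPM of Epor, one of 7.65 CPM. Across the 10 libraries, which share their depth and pools between both measures, Epor and the erythroid sum had r = 0.44 and rho = 0.37 on the log2(CPM + 1) scale, and r = 0.07 without NEO1+ libraries 3 and 1. In bulk libraries a few cells with much RNA and many cells with little cannot be told apart, and this holds for every receptor here. The log2 fold change of Epor was 0.29 without the 4 libraries of high granulocytic marker sums.

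Csf3r, on chromosome 4 (chr4:126024550-126044440, plus strand, 17 exons), encodes the receptor for granulocyte colony-stimulating factor, which drives neutrophil production. Its level in NEO1+ libraries 1 to 5 was 67.7, 33.3, 62.9, 33.0 and 42.4 CPM. The NEO1- values, in the same order, were 46.6, 39.2, 38.0, 48.8 and 54.8 CPM. NEO1+ libraries 1 and 3 were highest and NEO1+ libraries 2 and 4 lowest, so the NEO1- libraries all lay inside the NEO1+ range. Means were 47.9 ± 16.4 CPM (NEO1+) and 45.5 ± 6.98 CPM (NEO1-; SD, n = 5 each). The log2 fold change was 0.07 (SE 0.24, 95% interval -0.45 to 0.60, edgeR adjusted p 0.998). Of its transcript, 11.5% of all 50-base stretches also occur in other genes.

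Neutrophil marker levels followed Csf3r across libraries. The summed level of 9 neutrophil genes was 1893, 5.99, 3166, 41.1 and 140 CPM in NEO1+ libraries 1 to 5 and 8.60, 56.4, 24.3, 184 and 617 CPM in NEO1- libraries 1 to 5. The 3 highest sums belonged to NEO1+ 3, NEO1+ 1 and NEO1- 5, which were also the 3 libraries highest in Csf3r. Csf3r and the sum had r = 0.85 and rho = 0.82 over the 10 libraries on the log2(CPM + 1) scale, and r = 0.66 over 8 libraries without NEO1+ 3 and NEO1+ 1. With the summed level of the 7 granulocyte and monocyte progenitor genes, Csf3r had r = 0.17 and rho = 0.05, and r = 0.22 without NEO1- 3 and NEO1+ 3. Csf3r was nonetheless at 33.3 CPM in NEO1+ library 2, where 5 of the 9 neutrophil genes were at 0, and at 46.6 CPM in NEO1- library 1, where 6 were at 0. Without the 4 libraries of high granulocytic marker sums the log2 fold change of Csf3r was -0.37 (SE 0.27, edgeR adjusted p 0.970), opposite in sign to that over all libraries. That cut took out NEO1+ libraries 1 and 3, the highest in Csf3r, whose neutrophil sums were above it. NEO1- libraries 3 and 4 went out by their progenitor sums (2790 and 1207 CPM), and NEO1- library 5 stayed in. The choice of libraries thus was not independent of the Csf3r level, and the value is no estimate free of other cells. The part of other cells in the Csf3r level was not tested.

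Csf2rb, on chromosome 15 (chr15:78325752-78353847, plus strand, 15 exons), encodes the common beta chain that joins the ligand-binding chains for interleukin-3, interleukin-5 and GM-CSF. Mice carry a close copy, Csf2rb2, which encodes a beta chain specific for interleukin-3 and lies 20030 bp away on the opposite strand. Over 4545 aligned bases the transcripts were 93.3% identical, and 18.4% of the 50-base stretches of Csf2rb occur in Csf2rb2 as well. Of all aligned 60-base windows 19.8% held no difference and 67.8% held up to 3. The stretch below, the earliest window with exactly 3 differences (transcript positions 417 to 476 of Csf2rb and 317 to 376 of Csf2rb2, GENCODE M21), lies in the coding sequence and shows how few bases can tell reads of these genes apart. Capitals mark the bases that differ.
Csf2rb: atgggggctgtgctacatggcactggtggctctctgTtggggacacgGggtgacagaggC
Csf2rb2: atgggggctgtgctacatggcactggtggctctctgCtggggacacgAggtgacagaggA

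How reads that match both genes were counted is not given in the sources used here, so the split between them is uncertain. Csf2rb was at 21.9, 11.3, 20.8, 5.02 and 9.93 CPM in NEO1+ libraries 1 to 5. The NEO1- values, in the same order, were 0, 16.8, 8.40, 19.1 and 5.92 CPM. NEO1- library 1 had 0 counts of Csf2rb and 598 of Csf2rb2, while NEO1- library 3 had 248 counts of Csf2rb and 0 of Csf2rb2. Each gene thus had 0 counts in a library in which its copy was detected. Means of Csf2rb were 13.8 ± 7.30 CPM (NEO1+) and 10.03 ± 7.86 CPM (NEO1-; SD, n = 5 each), with a log2 fold change of 0.46 (95% interval -1.62 to 2.54, SE 0.97; adjusted p 0.998 in edgeR). That value was 0.14 without NEO1- library 1, 0.21 without the 4 libraries of high granulocytic marker sums, 1.78 in limma-trend and 2.09 in limma-voom, and it passed in none of these. The sum of both genes, which does not depend on the split but would lack reads discarded as shared, was 26.6 ± 8.62 CPM (NEO1+) and 21.2 ± 9.53 CPM (NEO1-; SD, n = 5 each). The sums ran from 19.3 to 40.1 CPM and from 8.40 to 33.2 CPM and overlapped.

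**Figure D4:**
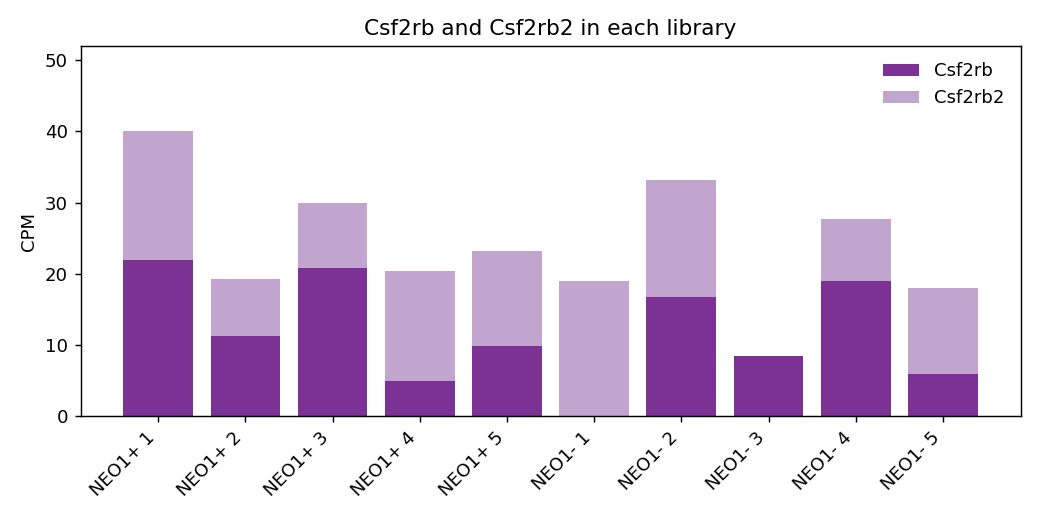
Stacked bars of the CPM of Csf2rb (dark) and of its close copy Csf2rb2 (light) in each of the 10 libraries, from 0. Csf2rb is at 0 in NEO1- library 1, where Csf2rb2 is at 19.0 CPM, and Csf2rb2 is at 0 in NEO1- library 3, where Csf2rb is at 8.40 CPM.

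Il3ra, on chromosome 14 (chr14:14346275-14356011, plus strand, 11 exons), encodes the chain that binds interleukin-3 and pairs with the beta chains. It was at 2.79, 1.82, 6.64, 6.36 and 7.95 CPM in NEO1+ and at 9.77, 2.57, 8.16, 4.62 and 0.662 CPM in NEO1- libraries 1 to 5. The highest and the lowest value both came from NEO1- libraries and differed 14.8-fold. The log2 fold change was -0.01 (SE 0.87, 95% interval -1.89 to 1.86, edgeR adjusted p 0.9997), with an interval too wide to bound the difference closely. Without the 4 libraries of high granulocytic marker sums it was 0.31. NEO1- library 1, with 0 counts of Csf2rb, had the highest Il3ra level.

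Il6st, on chromosome 13 (chr13:112464070-112510086, plus strand, 17 exons), encodes gp130, the signalling chain shared by interleukin-6, interleukin-11, LIF and oncostatin M. It was at 10.9, 40.4, 26.6, 24.9 and 23.5 CPM in NEO1+ and at 23.8, 42.8, 27.6, 9.36 and 28.3 CPM in NEO1- libraries 1 to 5. In each group 1 library was low and the library numbered 2 was high, and the ranges overlapped nearly in full. Means were 25.3 ± 10.5 CPM and 26.4 ± 12.0 CPM (SD, n = 5 each), with a log2 fold change of -0.06 (SE 0.40, 95% interval -0.93 to 0.81, edgeR adjusted p 0.998), and -0.094 without the 4 libraries of high granulocytic marker sums. Of the ligand-specific partners of gp130, Il11ra1 was among the highest chains of the list, with a median of 76.1 CPM per kilobase. Il27ra had 22.4 and Il6ra 3.03, and Lifr and Cntfr were at 0 in every library. Osmr was at 0 in 2 NEO1+ and 4 NEO1- libraries and reached at most 18.0 CPM. Il6ra and Il6st (2.97 CPM per kilobase) were thus at nearly the same median level per kilobase of transcript. This depends on the length used, since per kilobase of coding length the medians were 19.0 for Il6ra and 9.37 for Il6st.

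Il1r1, on chromosome 1 (chr1:40225080-40317257, plus strand, 11 exons), encodes the signalling receptor for interleukin-1. It was at 0, 0.588, 1.58, 3.32 and 1.71 CPM in NEO1+ libraries 1 to 5. The NEO1- values, in the same order, were 15.9, 1.40, 0, 9.15 and 19.7 CPM. NEO1- libraries 1, 4 and 5 lay above all NEO1+ libraries, while NEO1- libraries 2 and 3 lay within their range. The counts behind these values were 0, 23, 68, 109 and 59 in NEO1+ and 498, 30, 0, 301 and 596 in NEO1- libraries. Means were 1.44 ± 1.27 CPM and 9.22 ± 8.66 CPM (SD, n = 5 each). The log2 fold change of -2.67 (SE 1.47, 95% interval -5.85 to 0.50) was the largest of the 9 in size, but its edgeR p was 0.0922 and its adjusted p 0.823. Leaving out NEO1- library 3, which had 0 counts, gave -2.99 with an unadjusted edgeR p of 0.0229 (adjusted 0.557). Without the 4 libraries of high granulocytic marker sums it was -2.72 (unadjusted edgeR p 0.0548, adjusted 0.872). Over all alternatives tried it ran from -3.33 to -1.68, with adjusted p values of 0.416 or more.

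The partner chain Il1rap had the opposite sign to Il1r1, with 16.3 ± 12.9 CPM (NEO1+) and 7.03 ± 3.97 CPM (NEO1-; SD, n = 5 each), and did not pass either (log2 fold change 1.21, SE 0.69, edgeR adjusted p 0.843). The decoy receptor Il1r2 had a median of 0.0169 CPM per kilobase. Of the ligands, Il1a was at 0 in all libraries and Il1b had 51 counts in a single library and 0 in the other 9.

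Tnfrsf1a, on chromosome 6 (chr6:125349362-125362484, plus strand, 10 exons), encodes TNFR1, the main receptor for tumor necrosis factor. It was at 95.2, 115, 107, 101 and 101 CPM in NEO1+ and at 94.2, 95.6, 143, 96.8 and 109 CPM in NEO1- libraries 1 to 5. NEO1- library 3 was highest, and the other 9 libraries lay between 94.2 and 115 CPM. Means were 104 ± 7.54 CPM and 108 ± 20.6 CPM (SD, n = 5 each), with a log2 fold change of -0.05 (SE 0.14, 95% interval -0.36 to 0.26, edgeR adjusted p 0.998). Without NEO1- library 3 the log2 fold change was 0.07, and without the 4 libraries of high granulocytic marker sums 0.087. Tnfrsf1b, the other TNF receptor, had a median of 22.7 CPM per kilobase against 46.9 for Tnfrsf1a.

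The spread between libraries differed among these receptors. The highest library exceeded the lowest 1.46-fold for Kit, 1.52-fold for Tnfrsf1a, 2.05-fold for Csf3r and 4.58-fold for Il6st. Of the 90 values of 9 receptors in 10 libraries, 9 were 0, of which 6 belonged to Csf1r, 2 to Il1r1 and 1 to Csf2rb. A count of 0 in at least 1 library was thus found for 3 of 9 receptors and for 2 of the 8 tested, beside 18.8% of all genes tested. The intervals of Kit and Tnfrsf1a were the narrowest of the 8 tested, and a difference the size of that fitted for Epor (0.79) lies outside both of their intervals.

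Promoter sequences are shown for 3 receptors, Kit, Epor and Il1r1. The level of Kit varied least within the NEO1- group. Epor and Il1r1 had the largest fitted differences in each direction in the edgeR fit reported above. Each runs from 250 bases before to 50 bases after the gene start in RefSeq (GRCm38.p6), on the gene's own strand. They were searched on both strands for GATAA, a core of GATA factor sites, GGAAGT, a core of ETS factor sites, and TTCNNNGAA, the STAT half-site pair, and matches are in capitals. The Kit promoter (chr5:75574737-75575036, plus strand) held no match, that of Epor (chr9:21963527-21963826, minus strand) held GATAA on the opposite strand 54 bases before the start, and the first of 2 RefSeq promoters of Il1r1 (chr1:40224830-40225129, plus strand) held GGAAGT on the opposite strand 76 bases before the start. The second Il1r1 promoter (chr1:40266336-40266635, plus strand) held no match.
Kit: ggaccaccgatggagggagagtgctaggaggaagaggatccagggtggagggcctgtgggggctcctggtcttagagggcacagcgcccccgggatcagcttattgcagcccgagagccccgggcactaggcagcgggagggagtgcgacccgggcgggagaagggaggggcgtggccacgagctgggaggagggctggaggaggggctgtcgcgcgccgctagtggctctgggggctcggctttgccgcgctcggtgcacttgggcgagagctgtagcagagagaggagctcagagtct
Epor: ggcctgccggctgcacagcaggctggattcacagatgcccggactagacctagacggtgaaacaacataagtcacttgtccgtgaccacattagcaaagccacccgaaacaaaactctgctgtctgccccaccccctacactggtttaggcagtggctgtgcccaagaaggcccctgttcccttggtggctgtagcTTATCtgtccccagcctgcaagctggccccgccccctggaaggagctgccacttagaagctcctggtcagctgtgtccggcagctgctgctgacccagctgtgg
Il1r1: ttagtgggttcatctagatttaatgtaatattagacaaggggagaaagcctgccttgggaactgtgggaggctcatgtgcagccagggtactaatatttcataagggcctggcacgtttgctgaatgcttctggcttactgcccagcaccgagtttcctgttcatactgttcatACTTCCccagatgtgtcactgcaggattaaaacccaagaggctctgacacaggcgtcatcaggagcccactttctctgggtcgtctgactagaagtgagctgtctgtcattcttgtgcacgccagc

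Over 32851 mouse promoters of the same length GATAA occurred in 25.4%, GGAAGT in 23.8% and TTCNNNGAA in 8.3%. A match is a description, not a binding site. Of the other receptors, Il3ra held GGAAGT 139 bases and Tnfrsf1a TTCNNNGAA 244 bases before the start, Csf3r and Il6st held none of the 3, and no matches overlapped. Promoters were searched for 7 of 9 receptors. That of Csf1r was left out of the search, and none was matched for Csf2rb.

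Pairs of receptors ranged from closely parallel to opposite across libraries. Deviations of log2 CPM from the group mean were correlated over the 10 libraries for the 28 pairs of tested receptors, as a description of libraries that share depth and pools. The closest pair was Epor and Csf2rb (r = 0.92, rho = 0.87), and r was 0.75 without NEO1- libraries 1 and 2. NEO1- library 1 had the lowest value of both genes, and NEO1+ libraries 1 and 3 had high values of both. At the other end Kit and Il3ra had r = -0.70 and rho = -0.59, and r = -0.32 without NEO1- library 5 and NEO1+ library 2.

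**Figure D5:**
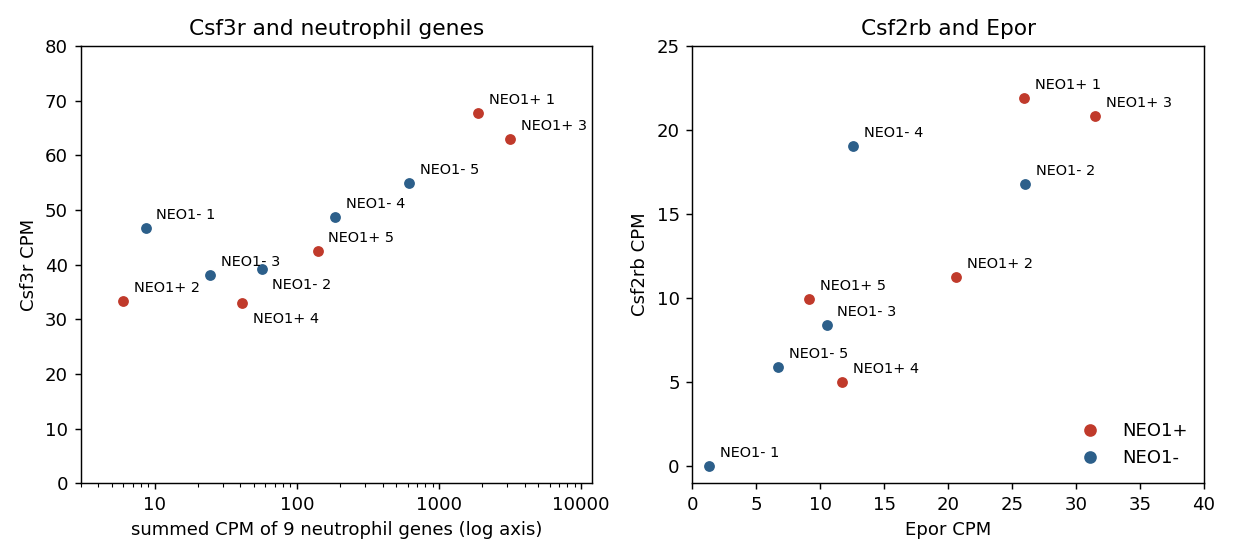
Left, Csf3r CPM against the summed CPM of 9 neutrophil genes (logarithmic axis); right, Csf2rb CPM against Epor CPM; each point is a labelled library, red for NEO1+ and blue for NEO1-. Csf3r is highest in NEO1+ libraries 1 and 3 (67.7 and 62.9 CPM), where the neutrophil sums are 1893 and 3166 CPM, and NEO1- library 1 is lowest in both Epor and Csf2rb (1.31 and 0 CPM).

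The genes whose deviations were most like those of each receptor were sought among about 8870 genes of moderate to high level (mean log2 CPM of 3 or more). For Csf3r they were Dhx36 (r = 0.94) and Camp (r = 0.92), a neutrophil granule gene of the marker list that ran from 0.435 to 334 CPM. For Epor they were Smad5 (0.98) and Vps54 (0.97), and for Csf2rb Cry1 and Plod3 (0.98 each). Kit was most like Mocs2 (0.93) and Lrp8 (0.92), and Tnfrsf1a most like Synj2bp (0.94) and Asl (0.93). Il3ra was most like AI597479 (0.98) and Pop7 (0.95), Il6st like Rcor2 and Piezo1 (0.91 each), and Il1r1 like Uqcc1 and Elovl7 (0.94 each). With so many genes searched over 10 libraries, values of this size are a ranking and not a test.

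The other genes of these pathways did not pass either. Among the other 38 receptor chains 25 were tested, of which 14 were higher and 11 lower in NEO1+ cells, with a median log2 fold change of 0.06. In edgeR 0 passed, and 0 had an unadjusted p under 0.05, beside 6.60% of all genes tested. The smallest p values belonged to Il1rap, described above, and to Flt3, the FLK2 receptor against which cells were gated. Flt3 was at 3.66 ± 1.46 CPM (NEO1+) and 12.4 ± 13.8 CPM (NEO1-; SD, n = 5 each; log2 fold change -1.76, SE 1.23, edgeR adjusted p 0.898). Flt3 and Il1r1 were both highest in NEO1- library 5, and Flt3 was at 0 in NEO1- library 1, where Il1r1 was at 15.9 CPM.

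Few of the ligand genes were detected widely. Of 19 ligand genes 7 were at 0 in all libraries, among them Csf2, Csf3, Epo, Il1a, Il3 and Il6, and 3 passed the filter on low counts. Flt3l, the ligand of FLK2, was at 12.7 ± 3.66 CPM (NEO1+) and 21.8 ± 11.9 CPM (NEO1-; SD, n = 5 each; log2 fold change -0.78, SE 0.39, edgeR adjusted p 0.800). Csf1, the ligand of Csf1r, had 0.24 as its log2 fold change (SE 0.73, edgeR adjusted p 0.998). Kitl, the ligand of Kit, had 41 counts in NEO1+ library 3 and 0 in the others.

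Downstream, all 11 JAK and STAT genes were tested, with 4 higher, 7 lower and 0 called in edgeR. Stat5b, which EPOR and the beta chain receptors activate, was at 107 ± 12.9 CPM (NEO1+) and 79.8 ± 14.1 CPM (NEO1-; SD, n = 5 each). Its log2 fold change was 0.42 (SE 0.15, edgeR p 0.0170, adjusted 0.604), and that of Tyk2 was 0.46 (adjusted 0.890). Stat5b was the 1 gene of these 11 with an unadjusted p under 0.05, beside 6.60% of all genes tested. Among 9 STAT target genes 6 were higher, 3 lower and 0 called. Bcl2l1, which encodes the survival protein BCL-XL, was at 85.0 ± 21.3 CPM against 51.2 ± 22.2 CPM (SD, n = 5 each; log2 fold change 0.73, edgeR p 0.0243, adjusted 0.633), and Bcl3 had a log2 fold change of 0.70 (adjusted 0.824).

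Of 22 negative regulators 12 were higher, 10 lower and 0 called in edgeR, and 1 had an unadjusted p under 0.05, beside 6.60% of all genes tested. That gene was Ptpn1, a phosphatase that acts on JAK kinases, with 78.4 ± 13.6 CPM (NEO1+) and 108 ± 35.1 CPM (NEO1-; SD, n = 5 each; log2 fold change -0.46, edgeR adjusted p 0.750). Sh2b3, the adaptor LNK that restrains KIT signals, had 0.32 as its log2 fold change (SE 0.16, edgeR adjusted p 0.807). Of 19 adaptors and kinases 8 were higher, 11 lower and 0 called, with 3 higher at an unadjusted p under 0.05, beside 3.11% of all genes tested. Plcg2 (0.38, SE 0.14) and Nras (0.45, SE 0.20), a RAS protein downstream of KIT, had the smallest p values of that list, with edgeR adjusted p values of 0.604 and 0.721. Among 34 genes of TNF and interleukin-1 signalling 20 were higher, 14 lower and 0 called. Birc2, an inhibitor of apoptosis bound to TNFR1 complexes, was at 43.6 ± 11.5 CPM (NEO1+) and 62.9 ± 9.90 CPM (NEO1-; SD, n = 5 each; log2 fold change -0.53, edgeR adjusted p 0.633), and Tradd, the adaptor of TNFR1, had a log2 fold change of -0.47 (adjusted 0.807). The list medians lay between -0.13 and 0.09, beside 0.01 over all genes tested.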

How the data were processed

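Bulk Smart-seq2 libraries (cDNA primed on poly(A) tails, 18 cycles of PCR) were sequenced from 5 NEO1+ and 5 NEO1- pools. The authors deposited raw counts per gene symbol and log2 values, which are log2(x + 1) with x the count over a constant for each library (largest residual 5.15e-14). Per the submitters' processing notes bcl2fastq 2.18, STAR 2.4, DESeq2 1.22.2 and the build mm10 were used; the counting tool, annotation and strand use are not given in the sources used here. Counts were tested in R 4.3.3 with edgeR 4.0.16 (filterByExpr, TMM, robust quasi-likelihood test, Benjamini-Hochberg adjustment over 12203 genes, threshold 0.05; common biological coefficient of variation 0.717), tested on simulated data. Alternatives were DESeq2 1.42.0, limma-trend on the deposited log2 values and limma-voom (3.58.1), other scaling, no filter, Rn45s removed (27.9 to 42.4% of counts), genes detected as a covariate, a replicate block, each library left out, and, added after seeing the data, 4 libraries left out together. Log2 CPM used a prior count of 2. Lengths, positions and transcript sequences came from GENCODE M21 (98.6% of tested genes matched) and promoters from RefSeq GRCm38.p6. The named genes are the 9 receptors, the 2 genes of smallest p in each pathway list, marker genes beside a receptor, and the 2 genes most like each receptor; other pathway genes were named after their values were seen. The receptors and lists were chosen with earlier results of these data known. Libraries of a group differed by at least 83.1 in chi-square per degree of freedom, so no library was counted as a repeat. The labels give 2 mice pooled for each library, but do not say whether libraries of both groups shared mice. The p values measure the spread between libraries, which holds that of the pools and of library preparation together. Same-numbered libraries are not stated to be pairs, so they were treated as unpaired. Their deviations correlated at 0.00403 to 0.0359 over genes, which cannot decide whether they were pairs, since libraries of unlike number were not compared. Of 24544 genes, 8860 had no count. The level of 1 receptor chain of the lists is not reported here.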

Additional observations from a re-analysis of the deposited data

Results flagged for a closer look

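Csf2rb in NEO1- library 1 stood far from the other NEO1- libraries. Its log2 CPM was -3.98, from 0 counts, while the nearest library was at 2.58 and the highest at 4.26. The gap was 0.797 of the whole range of the group, above the critical value of 0.71 for 5 samples. Of 18 groups of values examined (9 receptors in 2 groups) it was the 1 that passed, and chance gives about 0.9. The size of the value on the log scale depends on the prior count. In the same library the close copy Csf2rb2 had 598 counts, and the split of reads between both genes is uncertain. The sum of both genes there was 19.0 CPM, inside the range of the NEO1- libraries (8.40 to 33.2 CPM). NEO1- library 1 also had the fewest genes detected of the 10 libraries, 11477. The part of read assignment and of genes detected in the value was not tested.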

How the results depend on the processing

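Over 20 alternatives for each of 9 receptors, 149 of 180 log2 fold changes kept their sign, 31 reversed and 0 passed the threshold; Kit, Epor and Il1r1 kept their sign in all 20. The number of receptors called was 0 in every alternative. The number of genes called over the whole table was 0 with edgeR and 2 without the filter on low counts, 146 with DESeq2, 1 with limma-trend on the deposited log2 values, 2 with limma-voom, and 0 to 1 with each library left out in turn (1 without NEO1- library 1). A reversed sign was found with limma-trend for Csf1r (0.46) and Il3ra (0.27), with limma-voom for Csf1r (0.37), Csf3r (-0.026), Il3ra (0.29) and Il6st (0.17), and with genes detected as a covariate for Csf3r (-0.13), Csf2rb (-0.33), Il3ra (0.52), Il6st (0.42) and Tnfrsf1a (0.042). Without the 4 libraries of high granulocytic marker sums Csf3r (-0.37), Il3ra (0.31) and Tnfrsf1a (0.087) reversed. With each library left out in turn the log2 fold change ran from -0.81 to 4.01 for Csf1r, -0.083 to 0.18 for Csf3r, -0.30 to 0.35 for Il3ra, -0.29 to 0.18 for Il6st, -0.097 to 0.070 for Tnfrsf1a, -0.19 to -0.086 for Kit, 0.50 to 1.35 for Epor, 0.14 to 0.83 for Csf2rb and -3.24 to -2.19 for Il1r1. Over all libraries the log2 fold change was -0.0091 for Csf1r, in the edgeR fit without the filter, and -0.013 for Il3ra. Csf1r reversed in 8 and Il3ra in 10 of the 20 alternatives, and a sign so near 0 carries little weight. The values for Csf1r depend on the prior count and are no bounds. The cause of these changes was not tested.

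With the replicate number as a block, edgeR called 0 genes (874 at an unadjusted p under 0.05) and DESeq2 called 727, and neither called a receptor. The block reversed the sign of Csf1r (0.53 in edgeR, 0.63 in DESeq2) and Il3ra (0.13 and 0.12). The numbers are not known to pair the libraries. With 5 libraries of pooled cells in each group, the spread between libraries limits what can be said of several receptors. Below 10 CPM in both group means, the SE of the edgeR log2 fold change was 1.47 for Il1r1 and 0.87 for Il3ra. Above 10 CPM in both means, it was still 0.97 for Csf2rb and 0.62 for Epor. For Kit and Tnfrsf1a it was 0.10 and 0.14. Counts of Il1r1 ran from 0 to 596, and the part of depth in this spread was not tested.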
